A study of Homo sapiens with 16 samples.

Results

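Expression of 10 genes that mark epithelial cell junctions and the epithelial to mesenchymal transition was followed across 8 groups of NCI-H1688, a human line established from small cell lung carcinoma. The genes were taken by symbol from 44591 gene rows, and all 10 were found and passed the filter on low counts. They were the epithelial genes CDH1, EPCAM, CLDN4, CLDN7 and ESRP1, and the transition genes VIM, ZEB1, SNAI2, CDH2 and FN1. Culture lasted 24 h, with 1 µM sanguinarine chloride, with 3 µM of cepharanthine or of evodiamine, or as control. The other 4 groups had 1 µM sanguinarine plus 28 µM JQ1, 28 µM JQ1, 1 µM sanguinarine plus 60 nM panobinostat, or 60 nM panobinostat. Sanguinarine, cepharanthine and evodiamine are plant alkaloids, JQ1 is an inhibitor of BET bromodomain proteins, and panobinostat is an inhibitor of histone deacetylases. The control libraries are labelled untreated, while the design text gives DMSO. Each group had 2 libraries, described as biological duplicates of the same line.

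The data came as 2 tables of 8 libraries, with 4 groups each. Control, sanguinarine, cepharanthine and evodiamine were in the first table, and the other groups were in the second. There was no control library in the second table, so the effect of JQ1 or panobinostat against control and the table cannot be told apart, and comparisons were made within tables. Depth ran between 39996881 and 64060919 counted reads per library. HMOX1, a stress gene used here to check the labels, was at 195 to 704 CPM (counts scaled to library size) in the 6 sanguinarine libraries and at 1.43 to 9.86 CPM in the other 10.

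Epithelial cells are held together by adherens junctions, in which E-cadherin (CDH1) binds E-cadherin of the neighbouring cell, and by tight junctions, which claudins seal. In an epithelial to mesenchymal transition the transcription factors ZEB1 and SNAI2 repress CDH1 and other junction genes through E-box motifs, while vimentin (VIM), N-cadherin (CDH2) and fibronectin (FN1) become more abundant. ESRP1 is a splicing factor that sets epithelial isoforms, and EPCAM is an adhesion molecule of the epithelial surface. Small cell lung carcinoma lines range between neuroendocrine and non-neuroendocrine forms, and the second kind more often carries YAP1.

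Promoter sequences show where the E-box letters stand in these genes. Windows of 300 bases, from 250 before to 50 after a transcription start, were read from RefSeq on GRCh38.p14 for 6 of the 10 genes: CLDN4, CLDN7, VIM, ZEB1, CDH2 and FN1. CDH1, EPCAM, ESRP1 and SNAI2 had no entry. The letters searched were CACCTG and CAGGTG, which are each other's reverse complement and so cover both strands. These letters occurred in 3 of the 14 windows, 1 of CLDN7 and 2 of ZEB1, and in 20.6% of 35116 promoter windows of the same length. The 4 windows shown are those of the claudins, whose levels moved differently with the drugs, the ZEB1 window with most matches, and that of FN1, the most abundant transition gene. Each is given 5′ to 3′ on the strand of the gene, with E-box letters in capitals.
CLDN7 (chr17:7262429-7262728, minus strand): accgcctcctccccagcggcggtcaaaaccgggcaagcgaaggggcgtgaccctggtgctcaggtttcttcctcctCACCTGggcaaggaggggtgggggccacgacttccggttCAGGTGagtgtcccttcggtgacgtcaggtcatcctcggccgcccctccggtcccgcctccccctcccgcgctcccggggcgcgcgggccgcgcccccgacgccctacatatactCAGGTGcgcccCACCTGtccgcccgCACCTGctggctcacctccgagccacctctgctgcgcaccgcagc
CLDN4 (chr7:73830746-73831045, plus strand): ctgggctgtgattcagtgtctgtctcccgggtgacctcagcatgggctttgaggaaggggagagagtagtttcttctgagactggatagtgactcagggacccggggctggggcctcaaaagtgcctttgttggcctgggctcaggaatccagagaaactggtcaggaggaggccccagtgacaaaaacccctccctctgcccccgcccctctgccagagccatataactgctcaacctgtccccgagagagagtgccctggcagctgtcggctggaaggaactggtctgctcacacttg
ZEB1 (chr10:31318966-31319265, plus strand): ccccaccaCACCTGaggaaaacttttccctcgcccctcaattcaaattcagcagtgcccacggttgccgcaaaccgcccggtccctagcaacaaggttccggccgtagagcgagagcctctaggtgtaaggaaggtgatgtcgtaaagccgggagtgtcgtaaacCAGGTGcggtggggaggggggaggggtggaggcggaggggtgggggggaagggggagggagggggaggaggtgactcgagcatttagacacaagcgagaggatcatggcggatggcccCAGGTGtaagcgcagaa
FN1 (chr2:215436019-215436318, minus strand): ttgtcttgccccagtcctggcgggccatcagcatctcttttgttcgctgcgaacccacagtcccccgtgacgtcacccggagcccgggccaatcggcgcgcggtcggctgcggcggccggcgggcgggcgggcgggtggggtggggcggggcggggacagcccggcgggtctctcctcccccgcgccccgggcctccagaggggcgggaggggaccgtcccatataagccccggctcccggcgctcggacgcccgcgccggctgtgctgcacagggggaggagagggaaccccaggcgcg
The CLDN7 window held 5 matches, at -174, -135, -20, -9 and 6 from the start site, and 33 of all the windows held 5 or more. The second CLDN7 window held 0. The ZEB1 window held 3 matches, and 0.64% of all windows held 3 or more. The ZEB1 window was the one with most matches of 7, and the CLDN7 window that of 2. The values over all windows, which were not picked by matches, therefore do not measure how unusual these windows are. The windows of CLDN4, FN1, VIM and CDH2 held 0, which says only that these letters are not in these windows.

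Control cells carried abundant epithelial transcripts and abundant fibronectin, less N-cadherin and SNAI2, and very little vimentin or ZEB1. On the deposited per-length scale, RPKM (reads scaled to gene length and library size), CLDN7 was at 148 and 154 in the control libraries. FN1 was at 116 and 113 RPKM, EPCAM at 98.5 and 99.0 RPKM, CDH1 at 69.6 and 75.0 RPKM, CLDN4 at 54.2 and 54.6 RPKM and ESRP1 at 36.8 and 39.5 RPKM. These 6 genes did not overlap each other in the control libraries. CDH2 at 9.26 and 10.0 RPKM and SNAI2 at 7.70 and 7.26 RPKM stood far lower, and ZEB1 at 0.0615 and 0.113 RPKM and VIM at 0.0649 and 0.0261 RPKM overlapped each other at the bottom. E-cadherin thus exceeded N-cadherin 7.52-fold and 7.50-fold per length in control cells.

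The 5 epithelial markers KRT8, KRT18, KRT19, EPCAM and CDH1 were detected in every library, at a summed 4111 to 9159 CPM. EPCAM and CDH1 are also among the 10 genes, so these markers are not an independent check of identity. Of the small cell lineage markers, NEUROD1 had 0 counts and INSM1 had at most 5 in any library, while YAP1 ran between 77.6 and 297 CPM. CHGA stayed at or under 0.850 CPM and POU2F3 at or under 4.85 CPM. In libraries of the second table SYP ran between 5.37 and 35.3 CPM and NCAM1 between 0.305 and 97.1 CPM, whereas those of the first had at most 0.695 CPM of SYP and 0.239 CPM of NCAM1. The defining fibroblast genes DCN and LUM stayed at or under 0.215 and 0.813 CPM. COL1A1, the most abundant fibroblast marker, ran between 16.1 and 112 CPM. Of 5 leukocyte markers PTPRC stayed at or under 0.218 CPM, while CD14 reached 16.4 CPM, and their sum was 12.9 to 16.6 CPM in the panobinostat groups, 0.563 to 4.10 CPM in the JQ1 groups and 1.31 to 1.69 CPM in the first table. The 3 endothelial markers, of which CDH5 reached 19.2 CPM, summed to 4.99 and 4.79 CPM with sanguinarine, 16.7 and 11.5 CPM with cepharanthine and 16.7 and 16.9 CPM with evodiamine, against 19.5 and 19.3 CPM in control cells. In the second table that sum was 1.01 to 1.96 CPM in the JQ1 groups and 7.20 to 9.99 CPM in the panobinostat groups. The part of these markers in the results below was not tested.

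**Figure D1:**
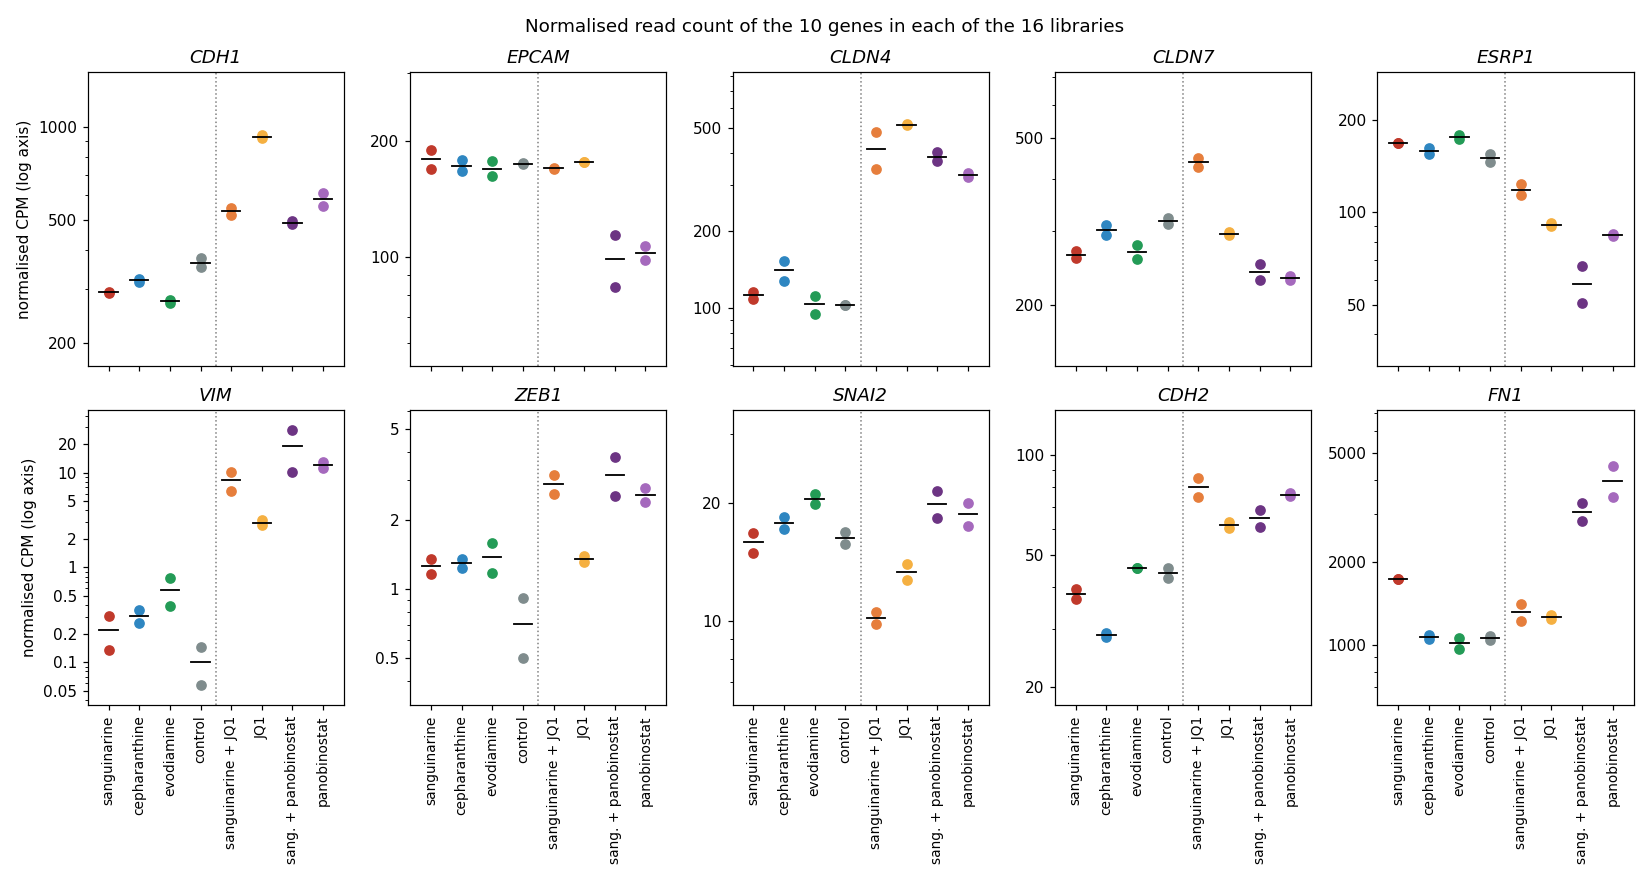
Normalised CPM (counts scaled to TMM library sizes within each table, log axis) of each gene in all 16 libraries; points are libraries and bars are means of 2. The dotted line separates the tables, and levels are not to be compared across it. FN1 stood above its control in both sanguinarine libraries of the first table, and VIM was highest in replicate 1 of sanguinarine with panobinostat, at 28.4 against 10.1 in replicate 2.

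All 3 alkaloids lowered E-cadherin modestly, while fibronectin, claudin 4 and N-cadherin responded differently between them. Sanguinarine raised fibronectin, and cepharanthine raised claudin 4 and lowered N-cadherin. Rises of SNAI2 and of the rare transcripts of vimentin and ZEB1 were called with evodiamine only. ZEB1 rose to a like extent with all 3, by 0.81 (sanguinarine), 0.85 (cepharanthine) and 0.94 (evodiamine) on the log2 scale. Set directly against evodiamine, neither other alkaloid had a called difference in vimentin or ZEB1, and SNAI2 differed only with sanguinarine. Sanguinarine changed 5 of the 10 genes (2 higher, 3 lower), while 41.9% of the 18756 genes tested were called (22.0% higher, 19.8% lower). Cepharanthine changed 3 (1 higher, 2 lower), with 16.7% of all genes called (9.40% higher, 7.30% lower), and evodiamine changed 6 (4 higher, 2 lower), with 29.7% called (14.5% higher, 15.3% lower). A gene was called at an adjusted p under 0.05, over all genes tested. The median log2 fold change of the 10 genes was 0.08 with sanguinarine, 0.05 with cepharanthine and 0.03 with evodiamine, against medians over all genes of 0.04, 0.01 and 0.02.

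CDH1, the adherens junction cadherin of epithelia, had 291 and 293 normalised CPM under sanguinarine, 315 and 323 under cepharanthine and 270 and 275 under evodiamine, against 352 and 376 in control cells. Every treated library lay below both control libraries. In bulk RNA such as this, fewer cells expressing a gene and less of its RNA per cell cannot be told apart. The log2 fold change was -0.32 ± 0.05 (SE) with sanguinarine (adjusted p = 6.72e-06) and -0.42 ± 0.05 with evodiamine (adjusted p = 1.41e-07). With cepharanthine it was -0.19 ± 0.05 (adjusted p = 0.00913), a call that was lost without control replicate 2 (-0.17, adjusted p = 0.13).

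The tight junction claudins parted. CLDN7 had 269 and 259 normalised CPM under sanguinarine, 310 and 295 under cepharanthine and 257 and 279 under evodiamine, against 313 and 324 in control cells. Every treated library lay below both controls for CLDN7. The log2 fold change was -0.27 ± 0.05 with sanguinarine (adjusted p = 1.33e-04) and -0.25 ± 0.05 with evodiamine (adjusted p = 6.51e-04). With cepharanthine it was -0.07 ± 0.05 and did not pass (adjusted p = 0.411). CLDN4 had 115 and 109 normalised CPM under sanguinarine, 152 and 128 under cepharanthine and 95.3 and 112 under evodiamine, against 103 and 103 in control cells. Only the rise with cepharanthine passed the threshold, at 0.45 ± 0.07 (adjusted p = 2.45e-05). That call was lost over all 16 libraries (0.44, adjusted p = 0.0559). CLDN7 overlaps ELP5 on the opposite strand, and no source used here says whether the counting used strand, so reads of the 2 genes cannot be told apart. ELP5 had 1118 to 1729 counts in these libraries, against 13068 to 16993 of CLDN7. In the second table, where the same limit holds, ELP5 had 621 to 1425 counts, against 9126 to 27075 of CLDN7. CLDN4 overlaps no other gene.

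EPCAM did not pass the threshold with any alkaloid. It had 189 and 169 normalised CPM under sanguinarine, 167 and 179 under cepharanthine and 162 and 177 under evodiamine, against 175 and 175 in control cells, and every treated group overlapped or straddled the controls. The 95% intervals of its log2 fold change lay between -0.17 and 0.16 over the 3 alkaloids. ESRP1, the epithelial splicing factor, had 168 and 167 normalised CPM under sanguinarine, 155 and 162 under cepharanthine and 179 and 173 under evodiamine, against 145 and 154 in control cells. It rose with evodiamine by 0.23 ± 0.06 (adjusted p = 0.0019), a call lost without control replicate 1 (0.18, adjusted p = 0.0978). Its rise with sanguinarine of 0.16 ± 0.06 (adjusted p = 0.0202) was lost without sanguinarine replicate 1 (0.16) or 2 (0.15) and without control replicate 1 (0.11). That call was also lost with DESeq2 size factors (0.14, adjusted p = 0.0537) and over all 16 libraries (0.14, adjusted p = 0.384).

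Among the transition genes, FN1, which encodes the matrix protein fibronectin, responded to sanguinarine. It had 1738 and 1732 normalised CPM under sanguinarine, 1053 and 1086 under cepharanthine and 1064 and 970 under evodiamine, against 1077 and 1040 in control cells. Both sanguinarine libraries lay above all 6 others, and the other groups overlapped. The log2 fold change with sanguinarine was 0.71 ± 0.05, a 1.64-fold rise (adjusted p = 9.41e-14), and it was 0.77 ± 0.05 for sanguinarine over evodiamine (adjusted p = 1.51e-14) and 0.70 ± 0.05 for sanguinarine over cepharanthine (adjusted p = 2.18e-13). The doses in those 2 pairs differed, 1 µM against 3 µM.

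CDH2, the N-cadherin of mesenchymal and neural cells, had 37.0 and 39.4 normalised CPM under sanguinarine, 28.4 and 29.2 under cepharanthine and 45.6 and 45.8 under evodiamine, against 42.7 and 45.7 in control cells. Cepharanthine libraries were the lowest of the table. The log2 fold change with cepharanthine was -0.62 ± 0.07, a 1.53-fold fall (adjusted p = 1.41e-07), and cepharanthine against evodiamine at the same dose of 3 µM gave -0.67 ± 0.07 (adjusted p = 1.04e-08). With sanguinarine the change was -0.21 ± 0.07 (adjusted p = 0.0202), which was lost without sanguinarine replicate 1 (-0.17, adjusted p = 0.201), without control replicate 2 (-0.17, adjusted p = 0.184) and with scaling to total counts (-0.10, adjusted p = 0.301). The ratio of E-cadherin to N-cadherin per length was therefore 7.15 and 6.77 under sanguinarine, 10.1 and 10.1 under cepharanthine and 5.39 and 5.48 under evodiamine, against 7.52 and 7.50 in control cells.

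Vimentin and ZEB1 had few reads in this table, and SNAI2 had more. VIM had 7 and 17 reads under sanguinarine, 13 and 20 under cepharanthine and 43 and 21 under evodiamine, against 6 and 3 in control cells. Evodiamine gave the only called change, with a log2 fold change of 2.54 ± 0.74 (adjusted p = 0.00851). It was lost without evodiamine replicate 1 (1.97, adjusted p = 0.148) and without control replicate 2 (1.98, adjusted p = 0.118). VIM-AS1 on the opposite strand had at most 4 counts in these 8 libraries and 35 to 507 in the second table. Apart from it, 164 genes had 0 counts in all of the first table and 1 CPM or more in all of the second. No source used here states how reads of overlapping genes were assigned, and the part of this in the VIM counts was not tested.

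ZEB1, a repressor of CDH1, had 71 and 65 reads under sanguinarine, 69 and 69 under cepharanthine and 66 and 86 under evodiamine, against 21 and 48 in control cells. ZEB1-AS1 on the opposite strand had 51 to 106 counts in these 8 libraries, so reads of the 2 genes cannot be told apart without strand. For ZEB1 every treated library exceeded both controls. Only evodiamine passed, at 0.94 ± 0.34 (adjusted p = 0.0345), and that call was lost without evodiamine replicate 2 (0.71, adjusted p = 0.256), without control replicate 1 (0.59, adjusted p = 0.313) and in the DESeq2 test (0.94, adjusted p = 0.057). Sanguinarine gave 0.81 ± 0.34 (adjusted p = 0.0571) and cepharanthine 0.85 ± 0.34 (adjusted p = 0.0878); without control replicate 2 both were called (1.31, adjusted p = 0.019 and 1.34, adjusted p = 0.0406). SNAI2 had 16.8 and 14.9 normalised CPM under sanguinarine, 17.2 and 18.4 under cepharanthine and 21.0 and 19.9 under evodiamine, against 16.9 and 15.7 in control cells. Its rise with evodiamine was 0.33 ± 0.10 (adjusted p = 0.0096), lost without evodiamine replicate 1 (0.29, adjusted p = 0.0962) and without control replicate 2 (0.26, adjusted p = 0.139).

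**Figure D2:**
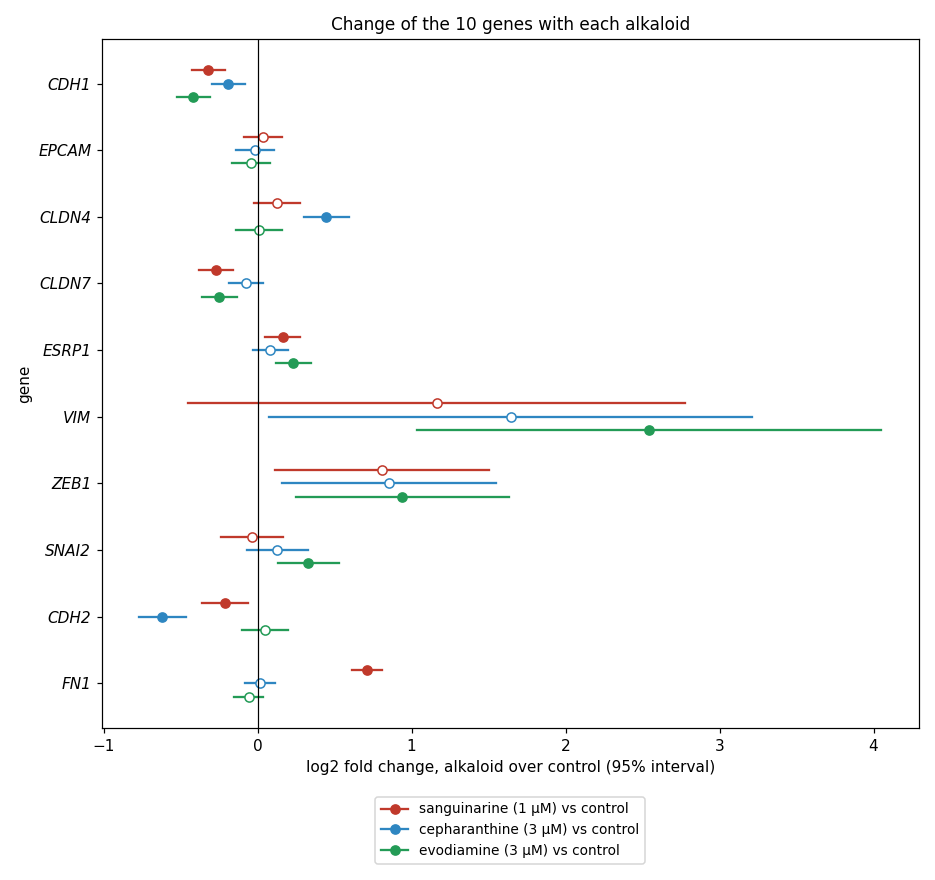
Log2 fold change over control of each gene with sanguinarine, cepharanthine or evodiamine, with 95% intervals; filled points have an adjusted p under 0.05 and open points do not. CDH1 lay below 0 with all 3 alkaloids, FN1 was at 0.71 with sanguinarine, CDH2 at -0.62 with cepharanthine, and the VIM and ZEB1 intervals were the widest.

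Set directly against each other, the alkaloids differed in a few of these genes. Sanguinarine against cepharanthine gave 4 called genes, where 34.9% of all genes were called (17.2% higher, 17.7% lower): FN1 and CDH2 (0.41 ± 0.07, adjusted p = 5.13e-05) higher, and CLDN4 (-0.32 ± 0.07, adjusted p = 6.28e-04) and CLDN7 (-0.20 ± 0.05, adjusted p = 0.0048) lower. The CLDN7 call was lost without sanguinarine replicate 2 (-0.18, adjusted p = 0.0773). Sanguinarine against evodiamine gave 3, where 41.3% of all genes were called (21.7% higher, 19.6% lower): FN1 higher, and SNAI2 (-0.37 ± 0.10, adjusted p = 0.00242) and CDH2 (-0.26 ± 0.07, adjusted p = 0.00458) lower. The SNAI2 call was lost without sanguinarine replicate 2 (-0.29, adjusted p = 0.0739) and the CDH2 call without sanguinarine replicate 1 (-0.21, adjusted p = 0.0971). Cepharanthine against evodiamine gave 5, where 33.4% were called (18.3% higher, 15.1% lower): CDH1 (0.23 ± 0.05, adjusted p = 8.64e-04), CLDN4 (0.44 ± 0.07, adjusted p = 1.19e-05) and CLDN7 (0.17 ± 0.05, adjusted p = 0.0127) higher, and CDH2 and ESRP1 (-0.15 ± 0.06, adjusted p = 0.0389) lower. The CLDN7 and ESRP1 calls of that pair were lost without cepharanthine replicate 1 (0.13, adjusted p = 0.081 and -0.13, adjusted p = 0.112) and without evodiamine replicate 1 (0.12, adjusted p = 0.198 and -0.12, adjusted p = 0.223), and the ESRP1 call also without evodiamine replicate 2 (-0.17, adjusted p = 0.0872).

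Added to JQ1, sanguinarine lowered E-cadherin and raised claudin 7, vimentin and ZEB1. This changed 5 of the 10 genes against JQ1 alone (4 higher, 1 lower), with 23.6% of 21192 tested genes called (14.3% higher, 9.29% lower), and the median log2 fold change of the 10 was 0.22 against 0.04 for all genes. CDH1 had 547 and 520 normalised CPM with sanguinarine and JQ1, against 918 and 939 with JQ1. The groups were far apart, and the log2 fold change was -0.80 ± 0.12, a 1.74-fold fall (adjusted p = 2.26e-04). CLDN7 went the other way, with 449 and 427 normalised CPM in the combination, against 299 and 294 with JQ1. It rose by 0.56 ± 0.12 (adjusted p = 0.00342), a call lost without JQ1 replicate 2 (0.56, adjusted p = 0.0666).

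VIM had 540 and 405 reads, or 10.2 and 6.38 normalised CPM, with sanguinarine and JQ1, against 110 and 122 reads, or 2.79 and 3.16 normalised CPM, with JQ1. It rose by 1.48 ± 0.37, a 2.78-fold rise (adjusted p = 0.00877), which was lost without replicate 1 of the combination (1.11, adjusted p = 0.134). ZEB1 had 3.17 and 2.62 normalised CPM in the combination, against 1.40 and 1.32 with JQ1. Its rise was 1.09 ± 0.29 (adjusted p = 0.0119), lost without replicate 1 of the combination (0.96, adjusted p = 0.0942) and without JQ1 replicate 1 (1.15, adjusted p = 0.0519) or 2 (1.05, adjusted p = 0.0741). Both genes lay above JQ1 in both combination libraries. The summed fibroblast markers, nearly all from COL1A1, were 38.0 and 36.5 CPM in the combination, against 43.3 and 44.0 CPM with JQ1, and their part in the result was not tested. ZEB1-AS1, antisense to ZEB1, had 58 to 381 counts in this table, so reads of the 2 genes cannot be told apart without strand. The same holds for VIM throughout this table, where VIM-AS1 had 35 to 507 counts and another antisense gene had 1 to 77.

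CDH2 had 85.2 and 74.6 normalised CPM with sanguinarine and JQ1, against 62.8 and 60.3 with JQ1. Its change of 0.38 ± 0.13 sat at the threshold (adjusted p = 0.0498) and was lost without any 1 of the 4 libraries (0.29 to 0.45). The call was also lost with DESeq2 size factors (0.35, adjusted p = 0.0668) and without the filter (0.38, adjusted p = 0.0761). With the levels of CDH1 and CDH2, the E-cadherin to N-cadherin ratio per length was 5.84 and 6.35 in the combination, against 13.3 and 14.2 with JQ1. ESRP1 had 113 and 123 normalised CPM in the combination, against 92.3 and 89.9 with JQ1 (0.38 ± 0.14, adjusted p = 0.068). SNAI2 had 10.5 and 9.80, against 13.9 and 12.7 (-0.39 ± 0.17, adjusted p = 0.101), and CLDN4 had 484 and 348, against 516 and 517 (-0.31 ± 0.15, adjusted p = 0.138). These 3 did not pass the test. EPCAM had 170 and 170 normalised CPM, against 177 and 177, with a 95% interval of the log2 fold change between -0.37 and 0.25. FN1 had 1407 and 1227 normalised CPM, against 1285 and 1244, with an interval between -0.25 and 0.36.

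Added to panobinostat, sanguinarine moved few of these genes past the threshold. ESRP1 was the 1 called gene of 10, with 15.1% of 21192 genes called (6.77% higher, 8.35% lower), and the median of the 10 genes was 0.00 against 0.01 for all genes. ESRP1 had 50.4 and 66.5 normalised CPM with sanguinarine and panobinostat, against 84.6 and 83.9 with panobinostat. It fell by 0.53 ± 0.14 on the log2 scale (adjusted p = 0.0232), a call lost without panobinostat replicate 1 (-0.49) or 2 (-0.51). The call was also lost with scaling to total counts (-0.36, adjusted p = 0.118) and in a fit of the 2 groups alone (-0.52, adjusted p = 0.0963). The duplicates of this combination were the least alike, with a median absolute log2 ratio of 0.321 over genes, beside 0.072 to 0.142 in the other 7 groups.

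VIM shows that spread. It had 28.4 and 10.1 normalised CPM with sanguinarine and panobinostat, against 11.2 and 12.8 with panobinostat, so that one combination library lay above both panobinostat libraries and the other below both. The log2 fold change of 0.68 ± 0.34 (adjusted p = 0.181) became -0.23 without replicate 1 of the combination and 1.23 without replicate 2 (adjusted p = 1.96e-04). The summed level of 7 fibroblast markers was 115 and 84.1 CPM in the combination, against 69.5 and 59.7 CPM with panobinostat, nearly all of it COL1A1, and its part in the result was not tested. FN1 had 3291 and 2835 normalised CPM, against 4476 and 3460 with panobinostat (-0.37 ± 0.14, adjusted p = 0.088). Both combination libraries lay below both panobinostat libraries, and FN1 was called without replicate 1 of the combination (-0.47, adjusted p = 0.0202).

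Of the other genes, CDH1 had 485 and 495 normalised CPM with sanguinarine and panobinostat, against 610 and 554 with panobinostat (-0.25 ± 0.12, adjusted p = 0.175). CDH2 had 60.6 and 68.4, against 76.8 and 75.1 (-0.24 ± 0.13, adjusted p = 0.239). Both sets of combination libraries were the lower ones without passing the test, and the CDH1 to CDH2 ratio per length was 7.29 and 6.60, against 7.23 and 6.71. CLDN4 had 403 and 372 normalised CPM, against 323 and 335 (0.24 ± 0.15, adjusted p = 0.294). EPCAM, CLDN7, ZEB1 and SNAI2 overlapped between the groups, with log2 fold changes between -0.06 and 0.29. EPCAM and CDH2 were called without replicate 2 of the combination (-0.31, adjusted p = 0.0273 and -0.34, adjusted p = 0.0277).

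**Figure D3:**
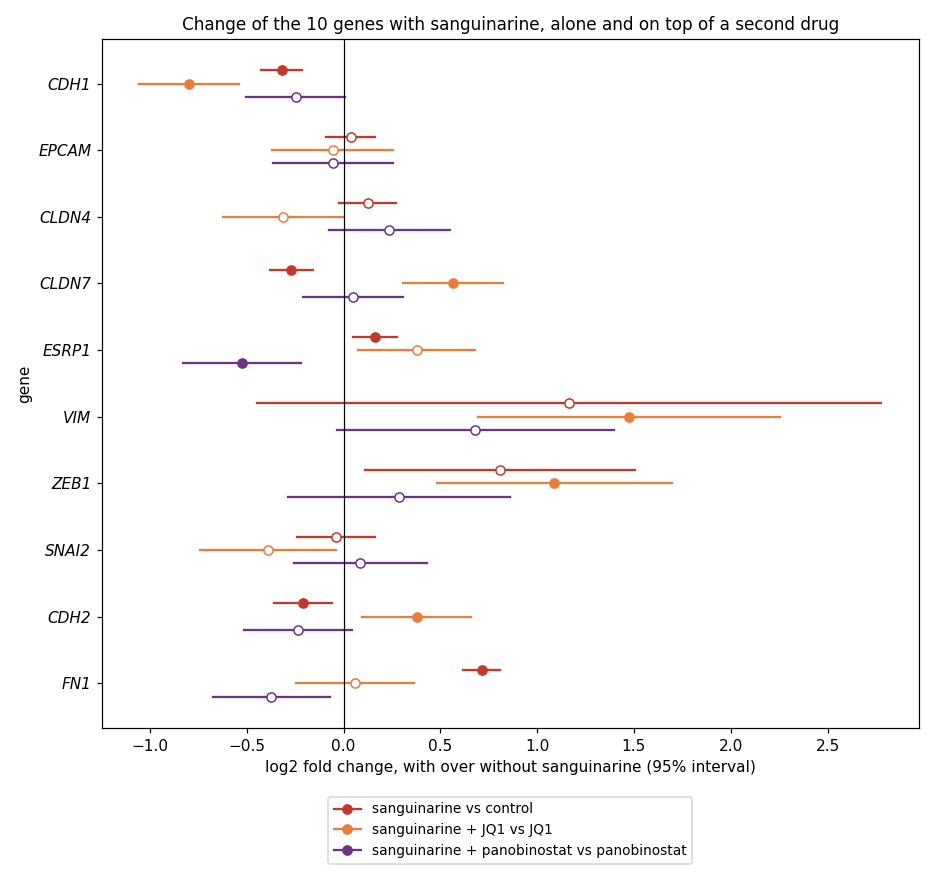
Log2 fold change of each gene with sanguinarine against control, sanguinarine with JQ1 against JQ1, and sanguinarine with panobinostat against panobinostat, with 95% intervals; filled points have an adjusted p under 0.05. CDH1 lay at -0.32, -0.80 and -0.25, CLDN7 changed sides between sanguinarine alone (-0.27) and with JQ1 (0.56), and FN1 was raised by sanguinarine alone (0.71) but not on either second drug.

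Whether the effect of sanguinarine differed with the second drug was tested as an interaction over all 16 libraries, in which every difference is taken within its own table. The effect of sanguinarine alone comes from the first table and its effect on a second drug from the second, so the second drug and the table cannot be told apart in this test. On JQ1 it differed for 4 of the 10 genes, with 18.1% of 22263 genes called (9.83% higher, 8.25% lower). Relative to its effect alone, sanguinarine on JQ1 lowered CDH1 more (-0.47 ± 0.12, adjusted p = 0.00788) and shifted CLDN7 upward (0.85 ± 0.12, adjusted p = 7.69e-05) and CDH2 upward (0.60 ± 0.14, adjusted p = 0.00478). Its effect on FN1 was smaller (-0.64 ± 0.16, adjusted p = 0.00691). The CDH1 difference was lost without control replicate 1 (-0.41, adjusted p = 0.0807).

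On panobinostat the effect of sanguinarine differed for 3 of the 10 genes, with 16.6% of all genes called (7.91% higher, 8.65% lower). FN1 differed by -1.01 ± 0.16 (adjusted p = 2.05e-04) and ESRP1 by -0.62 ± 0.15 (adjusted p = 0.0071). The difference of 0.40 ± 0.12 for CLDN7 (adjusted p = 0.0325) was lost without either sanguinarine library (0.42, adjusted p = 0.0853 without replicate 1 and 0.36, adjusted p = 0.141 without replicate 2), either control library (0.40, adjusted p = 0.108 and 0.34, adjusted p = 0.17) or either panobinostat library (0.37, adjusted p = 0.103 and 0.38, adjusted p = 0.114).

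JQ1 and panobinostat cells differed in most of these genes. Against panobinostat, JQ1 cells had more of 4 epithelial genes (CDH1, EPCAM, CLDN4 and CLDN7) and less of 4 transition genes (VIM, ZEB1, SNAI2 and FN1). This made 8 of 10 called, with 53.8% of all 21192 genes called, 23.1% higher and 30.7% lower. The median of the 10 genes was -0.10, as was that of all genes.

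CDH1 had 918 and 939 normalised CPM with JQ1, against 610 and 554 with panobinostat (0.67 ± 0.12, adjusted p = 2.21e-04). EPCAM had 177 and 177 with JQ1, against 98.5 and 107 with panobinostat (0.79 ± 0.15, adjusted p = 3.31e-04). CLDN4 had 516 and 517 with JQ1, against 323 and 335 with panobinostat (0.65 ± 0.15, adjusted p = 0.00153). These 3 groups of libraries were well separated. CLDN7 had 299 and 294 with JQ1, against 229 and 234 with panobinostat (0.35 ± 0.12, adjusted p = 0.022), a call lost without any 1 of the 4 libraries (0.33 to 0.44, adjusted p = 0.055 to 0.179). ESRP1 did not pass, at 92.3 and 89.9 with JQ1, against 84.6 and 83.9 with panobinostat (0.11 ± 0.14, adjusted p = 0.528).

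FN1 had 1285 and 1244 normalised CPM with JQ1, against 4476 and 3460 with panobinostat. Fibronectin was thus 3.14-fold lower with JQ1 (log2 fold change -1.65 ± 0.15, adjusted p = 1.89e-07). VIM had 2.79 and 3.16 normalised CPM with JQ1, against 11.2 and 12.8 with panobinostat, a 4.04-fold difference (-2.01 ± 0.37, adjusted p = 2.74e-04). Reads of VIM and of its antisense genes cannot be told apart here either. The summed fibroblast markers were 43.3 and 44.0 CPM with JQ1, against 69.5 and 59.7 CPM with panobinostat, with DCN and LUM under 1 CPM, and their part in the result was not tested. ZEB1 had 1.40 and 1.32 normalised CPM with JQ1, against 2.41 and 2.78 with panobinostat (-0.93 ± 0.29, adjusted p = 0.0129), a call lost without JQ1 replicate 2 (-0.90, adjusted p = 0.0632) and without panobinostat replicate 2 (-0.76, adjusted p = 0.118). SNAI2 had 13.9 and 12.7 with JQ1, against 17.4 and 20.0 with panobinostat (-0.49 ± 0.17, adjusted p = 0.0194), lost without any 1 of the 4 libraries (-0.58 to -0.32, adjusted p = 0.0632 to 0.26). CDH2 had 62.8 and 60.3 with JQ1, against 76.8 and 75.1 with panobinostat, and did not pass (-0.31 ± 0.13, adjusted p = 0.0633).

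With sanguinarine in both arms, sanguinarine with JQ1 against sanguinarine with panobinostat gave 6 called genes, with 50.5% of all genes called (23.5% higher, 27.0% lower). EPCAM had 170 and 170 normalised CPM with JQ1 and sanguinarine, against 83.4 and 114 with panobinostat and sanguinarine (0.78 ± 0.15, adjusted p = 4e-04). CLDN7 was higher by 0.87 ± 0.12 (adjusted p = 2.83e-05) and ESRP1 by 1.02 ± 0.14 (adjusted p = 3.08e-05). SNAI2 was lower, at 10.5 and 9.80 normalised CPM against 18.3 and 21.5 (-0.97 ± 0.16, adjusted p = 1.65e-04), and FN1 was lower, at 1407 and 1227 against 3291 and 2835 (-1.22 ± 0.15, adjusted p = 5.44e-06). VIM overlapped between the groups, at 10.2 and 6.38 normalised CPM against 28.4 and 10.1. It was lower by 1.22 ± 0.34 on the log2 scale (log2 fold change -1.22, adjusted p = 0.0072). That call was lost in the DESeq2 test (-1.23, adjusted p = 0.0602). It was also lost without replicate 1 of sanguinarine with panobinostat (-0.26) and without replicate 2 of sanguinarine with JQ1 (-0.90).

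**Figure D4:**
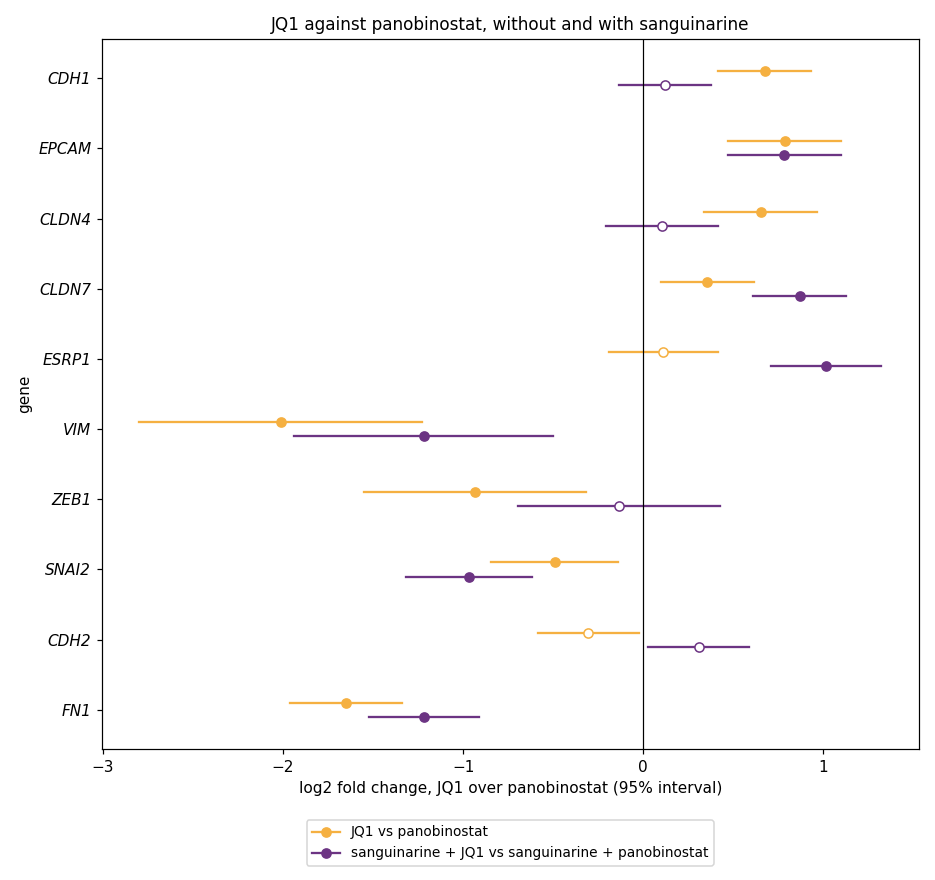
Log2 fold change of JQ1 over panobinostat for each gene, without and with sanguinarine in both groups, with 95% intervals; filled points have an adjusted p under 0.05. EPCAM and CLDN7 lay above 0 and FN1, VIM and SNAI2 below 0 in both comparisons, while CDH1, CLDN4 and ZEB1 were called only without sanguinarine and ESRP1 only with it; those differences between the 2 comparisons were not tested.

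A further 119 genes in 7 lists of junction and transition genes placed the 10 in context, with counts read beside the shares of all genes called. Unlike the 10 genes, the lists were not run under the alternative settings or with single libraries left out. With sanguinarine, where 22.0% of all genes rose and 19.8% fell, adherens junction genes were mostly lower: 1 rose and 7 fell of 12 tested, with a median log2 fold change of -0.17 against 0.04 for all genes. CDH3, the P-cadherin, fell by 0.62 ± 0.05 on the log2 scale (252 and 254 normalised CPM, against 396 and 383 in control cells, adjusted p = 1.42e-11), and the tight junction scaffold TJP1 fell by 0.47 ± 0.05 (adjusted p = 1.27e-08). Of 21 tight junction genes 7 were higher and 6 lower, and of 21 mesenchymal and matrix genes 7 were higher and 5 lower. Among the matrix genes tenascin (TNC) fell to 11.3 and 10.1 normalised CPM with sanguinarine, against 44.2 and 43.3 in control cells (-2.03 ± 0.09, adjusted p = 2.66e-18), while FN1 rose. In the TGF-beta list 4 rose and 3 fell of 18, and INHBA, a subunit of activins, had 54.8 and 53.8 normalised CPM with sanguinarine, against 7.50 and 7.03 in control cells (2.91 ± 0.10, adjusted p = 1.13e-21).

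With cepharanthine, where 9.40% of all genes rose and 7.30% fell, 0 adherens junction genes rose and 4 fell of 12, 6 tight junction genes rose and 2 fell of 21, and 3 mesenchymal genes rose and 5 fell of 21. CLDN1 fell by 0.59 ± 0.06 on the log2 scale (adjusted p = 4.67e-09) while CLDN4 rose, and TAGLN, an actin-binding protein of smooth muscle, fell by 1.45 ± 0.07 (adjusted p = 4.76e-17). With evodiamine, where 14.5% of all genes rose and 15.3% fell, 3 adherens junction genes rose and 5 fell of 12. Of 11 desmosome genes 1 rose and 6 fell. Of 6 transition transcription factors 2 rose and 0 fell with sanguinarine, with a list median of 0.39 against 0.04 for all genes. With cepharanthine 1 rose and 0 fell (0.17 against 0.01). With evodiamine 2 rose and 0 fell, with a list median of -0.04 against 0.02 for all genes. Those were SNAI1, at 2.55 and 2.32 normalised CPM with evodiamine, against 0.0958 and 0.438 in control cells (3.11 ± 0.45, adjusted p = 1.73e-06), and SNAI3 (1.17 ± 0.31, adjusted p = 0.00407).

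Sanguinarine on JQ1, where 14.3% of all genes rose and 9.29% fell, raised 4 of 6 transition transcription factors, with a list median of 0.96 against 0.04 for all genes, while 0 desmosome genes rose and 6 of 11 fell and 8 of 21 epithelial regulators fell and 3 rose. SNAI1 had 49.3 and 21.9 normalised CPM with sanguinarine and JQ1, against 1.37 and 1.63 with JQ1 (4.56 ± 0.36, adjusted p = 3.73e-07). KRT8, a keratin of simple epithelia, fell by 1.35 ± 0.12 (adjusted p = 1.79e-06), whereas EHF, an epithelial transcription factor, rose by 1.66 ± 0.17 (adjusted p = 5.01e-06). On panobinostat, where 6.77% of all genes rose and 8.35% fell, 1 of 6 transition factors was called, a count too small to describe the list. It was SNAI1 (22.0 and 13.9 normalised CPM, against 4.93 and 5.34 with panobinostat, 1.80 ± 0.31, adjusted p = 0.002). Of 11 desmosome genes 0 rose and 3 fell. DSG2, a desmosomal cadherin, fell by 1.05 ± 0.14 (adjusted p = 3.49e-04). These list calls were not followed with single libraries left out, and the duplicates of this combination were the least alike.

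In JQ1 against panobinostat, where 23.1% of all genes were higher and 30.7% lower, the transition lists were mostly lower. All 6 tested transition transcription factors were lower with JQ1 and 0 were higher, and 16 of 23 mesenchymal and matrix genes were lower and 4 higher, with list medians of -1.54 and -1.43 against -0.10 for all genes. SNAI1 had 1.37 and 1.63 normalised CPM with JQ1, against 4.93 and 5.34 with panobinostat (-1.77 ± 0.36, adjusted p = 5.69e-04). Epithelial regulators had 11 higher and 6 lower of 21, adherens junction genes 5 higher and 1 lower of 12, and desmosome genes 6 higher and 2 lower of 11. PKP3, a desmosomal plaque protein, had 367 and 340 normalised CPM with JQ1, against 78.2 and 78.2 with panobinostat (2.18 ± 0.14, adjusted p = 7.37e-09). Of 21 tight junction genes 6 were higher and 5 lower, and TJP3 among them was lower with JQ1 by 2.93 ± 0.17 on the log2 scale (log2 fold change -2.93, adjusted p = 2.94e-09).

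**Figure D5:**
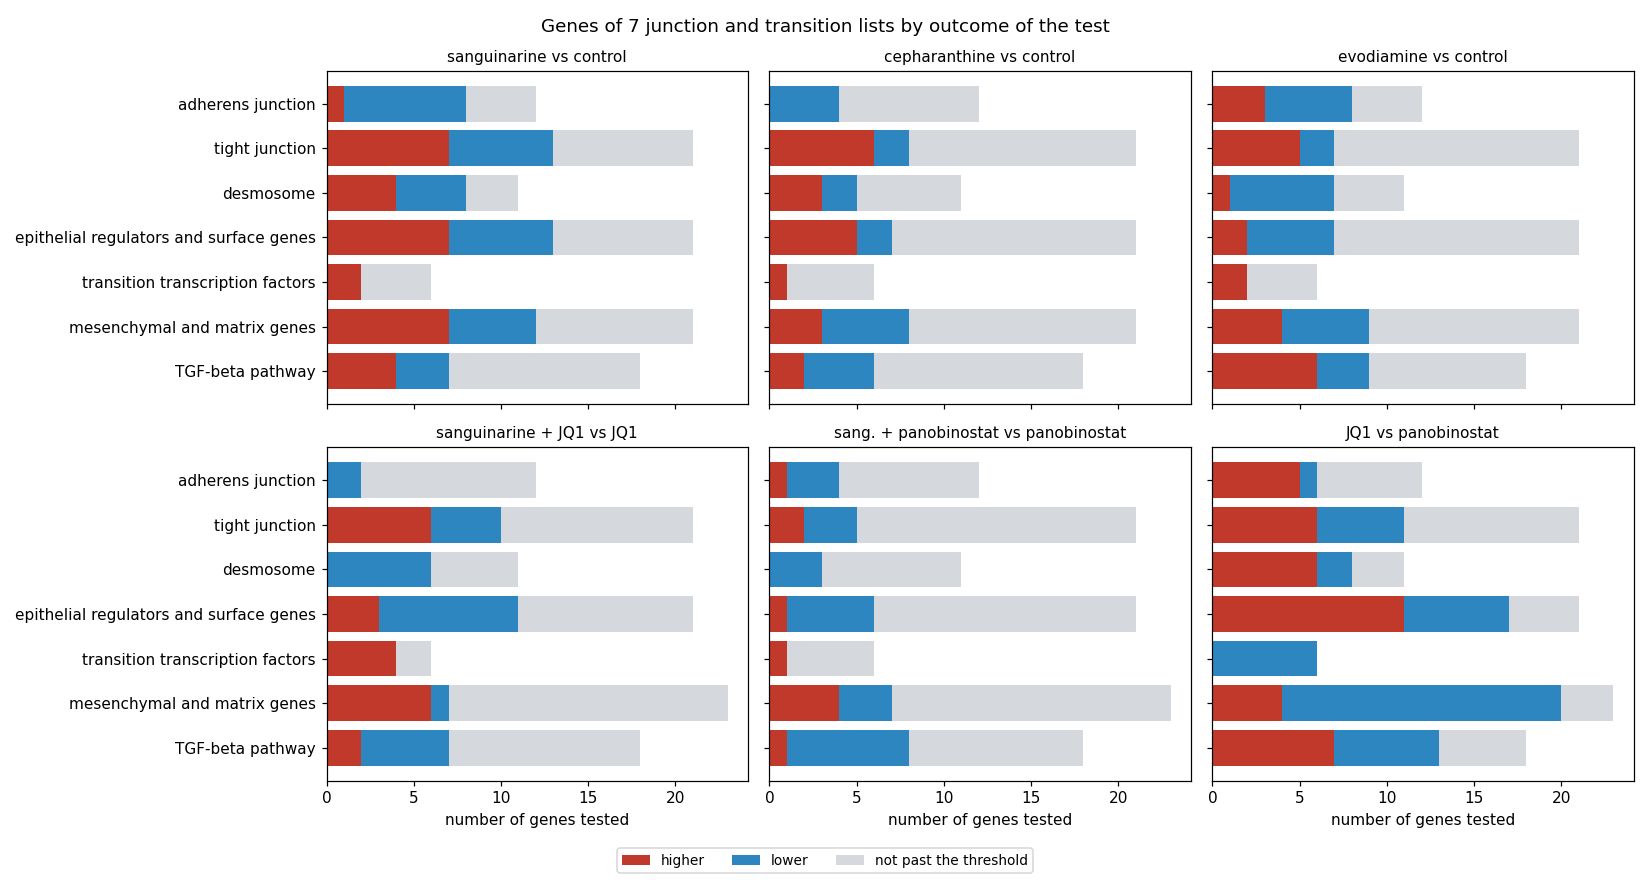
Number of genes of each list that were higher (red), lower (blue) or not past the threshold (grey) in 6 comparisons; bar length is the number of genes tested, and the 10 genes themselves are not in the lists. In JQ1 against panobinostat all 6 transition transcription factors and 16 of 23 mesenchymal genes were lower.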

How the data were processed

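The authors deposited whole-number read counts for each gene and library, per the file headers, and their deposited RPKM values scale these to gene length and library total. Per the submitters' processing notes and design text, reads were mapped with STAR 2.5.1 to GRCh38 and tested with DESeq2; no source used here names the counting tool. Row positions did not match that build, so none is printed.

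Replicates are the 2 libraries of a group; in the first table their numbers follow accession order. Each table's counts were fitted with edgeR 4.0.16 (R 4.3.3), with TMM scaling, filterByExpr, a quasi-likelihood test over its 8 libraries and Benjamini-Hochberg adjustment over all genes tested. Interactions were fitted over all 16 libraries. Normalised CPM are counts scaled by TMM library sizes within a table. Errors of fold changes are model standard errors, and intervals cover 95%; the spread is pooled over groups. The fits were tested on simulated data.

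The 10 genes and the lists were chosen with earlier results of these data known. All 10 genes are described; from a list, at most the 2 largest called rises and 2 largest called falls with a mean of at least 1 CPM in a group may be named. Alternatives were DESeq2 1.42.0, its size factors, total-count scaling (chosen after seeing the data), no filter, other libraries in the fit, a replicate block and leaving out each replicate. The level of 1 lineage marker is not reported here.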

Additional observations from a re-analysis of the deposited data

Results flagged for a closer look

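The effect of sanguinarine differed by the interaction test between cells without a second drug and cells with JQ1 for 4 genes. The log2 difference of effects, on JQ1 minus alone, was -0.468 for CDH1, 0.845 for CLDN7, 0.598 for CDH2 and -0.644 for FN1. CLDN7 and CDH2 were higher with sanguinarine on JQ1 and lower with sanguinarine alone, whereas CDH1 was lower in both and FN1 was raised by sanguinarine alone.

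Between cells without a second drug and cells with panobinostat, the effect differed for CLDN7 (0.395), ESRP1 (-0.617) and FN1 (-1.013). FN1 was higher with sanguinarine alone (0.71) and was at -0.37 on panobinostat, which did not pass the test.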

How the results depend on the processing

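Of the 53 calls of the 10 genes, 26 held under every alternative run, 27 were lost under at least 1, and 0 changed sign. The losses given with each gene above do not name every one. Uncalled values were followed only for each alkaloid against control, sanguinarine on each second drug, and JQ1 against panobinostat. There they passed the threshold under an alternative 22 times. Scaling to total counts moved the median of all genes by 0.112 for sanguinarine against control, 0.164 for sanguinarine on panobinostat and -0.19 between the combinations, and the sign changes below concern values not called in the report. Under it SNAI2 became 0.072 with sanguinarine, and EPCAM became 0.007 with cepharanthine, 0.01 on JQ1 and 0.114 on panobinostat. FN1 with cepharanthine became -0.005 with DESeq2 and with its size factors and -0.002 without the filter, and CLDN4 with evodiamine became -0.004 without the filter and -0.006 over all 16 libraries.

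Leaving out single libraries, the log2 fold changes that changed sign ran as follows. With sanguinarine EPCAM was between -0.05 and 0.095 and SNAI2 between -0.129 and 0.025; with cepharanthine EPCAM was between -0.067 and 0.011 and FN1 between -0.034 and 0.022. With evodiamine EPCAM was between -0.111 and 0.017, CLDN4 between -0.112 and 0.117, FN1 between -0.128 and 0.004 and CDH2 between -0.009 and 0.083. On JQ1 FN1 was between -0.033 and 0.133. On panobinostat EPCAM was between -0.311 and 0.173, VIM between -0.226 and 1.228, ZEB1 between -0.004 and 0.529 and SNAI2 between -0.049 and 0.218.

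With all 16 libraries in one fit, members called were 3 for sanguinarine, 1 for cepharanthine and 2 for evodiamine against control, 2 for sanguinarine against cepharanthine, 2 for cepharanthine against evodiamine and 2 for sanguinarine on panobinostat; genes called were 4895, 793 and 2546 against control, 3267, 4563 and 3131 between alkaloids and 5107 on panobinostat. Fits of the compared groups alone gave 3 members for cepharanthine against evodiamine, 8 members and 7938 genes for sanguinarine on JQ1, and 0 members and 1936 genes on panobinostat. Total counts gave 6 members for sanguinarine against evodiamine and 0 on panobinostat, and no filter gave 2 there. Member counts given here without a count of genes have no background under the same setting. They are not read as a result about the members.

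Without single libraries, members called were 3 to 5 for sanguinarine against control, 3 to 5 for cepharanthine against evodiamine, 2 to 4 on JQ1, 0 to 4 on panobinostat and 5 to 6 for JQ1 against panobinostat. Genes called were 1761 to 3770 for cepharanthine against control, 2331 to 2896 on JQ1, 319 to 7030 on panobinostat, 2618 to 3443 for the interaction with JQ1 and 2084 to 6263 for that with panobinostat. The cause was not tested. The lowest count of genes on panobinostat was without panobinostat replicate 2 and the highest without replicate 2 of the combination. Both the members and the genes called depended on the library left out. These member counts are therefore not read as a result about the members.

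Replicate numbers of the second table share only a number: correlations of same-numbered deviations ran between -0.036 and 0.105 over 6 group pairs. With the replicate block, 35 of 36 values kept their call, and FN1 on panobinostat gained one (-0.368, adjusted p = 0.0455 from edgeR), so that 2 members were called. For the first table and the interactions no paired analysis was possible because the titles there carry no shared replicate numbers. With 2 libraries per group, small changes of VIM and ZEB1 were limited by counts of 3 to 86 in the first table.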

Other observations

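Other claudins had called changes with sanguinarine, alone or on a second drug. They come from the tight junction list, where 7 rose and 6 fell of 21 with sanguinarine alone. On JQ1 6 rose and 4 fell of 21, where 14.3% of all genes rose and 9.29% fell. On panobinostat 2 rose and 3 fell of 21, where 6.77% of all genes rose and 8.35% fell. With sanguinarine alone 22.0% of all genes rose and 19.8% fell. With sanguinarine CLDN3 had 3.34 and 3.65 normalised CPM, against 1.15 and 1.37 in control cells (1.46 ± 0.25, adjusted p = 1.66e-05 from edgeR), and CLDN9 had 2.35 and 2.36, against 0.958 and 0.362 (1.87 ± 0.34, adjusted p = 3.02e-05). CLDN2, which forms a cation pore in leaky epithelia, rose with sanguinarine on both second drugs. It had 1.21 and 1.02 normalised CPM with sanguinarine and JQ1, against 0.203 and 0.155 with JQ1 (2.62 ± 0.57, adjusted p = 0.00383), and 4.91 and 1.66 with sanguinarine and panobinostat, against 0.528 and 0.363 with panobinostat (2.88 ± 0.48, adjusted p = 0.00177). CLDN6 had 6.32 and 4.52 with sanguinarine and JQ1, against 1.09 and 1.40 with JQ1 (2.12 ± 0.37, adjusted p = 7.37e-04). CLDN1 fell with sanguinarine on panobinostat, at 112 and 201 normalised CPM, against 323 and 342 with panobinostat (-1.09 ± 0.20, adjusted p = 0.00291).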
